A study of Mus musculus with 6 samples.

Results

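The coenzyme Q biosynthesis genes were followed in the left ventricle of mice lacking MURC, a caveola protein of muscle whose gene is now called Cavin4. Of 10 listed genes, 9 carried a probe set with a single gene symbol, out of 19938 genes so named on the array. These were Pdss2, Coq2, Coq3, Coq4, Coq5, Coq6, Coq7, Coq9 and Coq10a. Coq10a had 2 probe sets and each of the others had 1, and no value is given for Pdss1. Coq5 entered the comparison because its signal was low in the knockout, so its values are a description with no test. The other genes were chosen by pathway, and the question was whether they followed Coq5.

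The knockout animals (KO) were males lacking MURC, with 3 arrays at 11, 11 and 13 weeks of age, and they were set against 3 wild-type (WT) males at 13, 13 and 12 weeks. All were of C57BL/6 background and received no treatment that the labels name. The sources used here do not give how the MURC allele was made or whether each array is a separate animal. The p-values therefore reflect only the spread among these 6 samples, which may be technical. Signals are log2 values of Affymetrix probe sets, and a difference of 1 is a doubling.

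Coenzyme Q, or ubiquinone, is a lipid of the inner mitochondrial membrane that carries electrons from complex I, complex II and several other dehydrogenases to complex III. It is a benzoquinone ring with a long isoprenoid tail. PDSS1 and PDSS2 together make the tail, COQ2 joins it to the ring precursor, and a membrane-bound group of COQ proteins then modifies the ring. The heart, with its dense mitochondria, is among the tissues richest in it.

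The targeted gene matched the label of every array. Cavin4 measured 5.38, 5.74 and 5.59 in KO arrays, against 8.75, 8.62 and 8.07 in WT arrays, and was the 1 probe set of 24898 past an adjusted p of 0.05 in limma (0.00402%). The ventricular cardiomyocyte markers Myh6, Myl2, Myl3, Tnnt2, Tnni3, Actn2 and Ryr2 averaged 12.38 to 12.41 in KO arrays and 12.36 to 12.40 in WT arrays. KO replicate 2 stood apart. Its atrial markers Myl7, Myl4 and Sln averaged 6.46, against 4.11 and 4.05 in the other KO arrays and 3.90 to 4.24 in WT arrays. Myl7 and Myl4 carried most of this, at 7.22 and 8.67 on that array. Sln, too dim for the filter, measured 3.49 there, against 2.51 to 3.12 on the other arrays. The mean of 3 smooth muscle markers was 6.55 to 6.59 in KO arrays and 6.31 to 6.41 in WT arrays, without overlap. Of the 3, Myh11 separated the genotypes while Acta2 and Cnn1 overlapped. The part of the atrial and smooth muscle markers in the results was not tested. The fibroblast, endothelial, leukocyte, adipocyte and erythroid markers overlapped between genotypes, with adipocyte measured at 2 genes and erythroid at 1. All 5 leukocyte markers had a lower mean in KO arrays, with a median log2 difference of -0.19, where 59.0% of all probe sets were lower. None of the 5 had an unadjusted p under 0.05 in limma, and their part in the results was not tested. In whole tissue, fewer cells of a type and less RNA per cell cannot be told apart.

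Besides Coq5, Pdss2 and Coq7 were the members with the smallest p, on opposite sides of 0, so their promoters are shown here. The windows run from 250 bases before to 50 bases after a RefSeq start in GRCm38.p6, 5′ to 3′ on the strand of the gene. That of Pdss2 is chr10:43221236-43221535 on the plus strand, and that of Coq7 is chr7:118533307-118533606 on the minus strand. Capitals mark matches to 4 motifs searched on both strands, which do not overlap here: CCAAT (the box bound by NF-Y), ATGGCG (the core bound by YY1), TGCGCA (the repeat unit of the site bound by NRF1) and CACGTG (an E-box).
Pdss2 promoter: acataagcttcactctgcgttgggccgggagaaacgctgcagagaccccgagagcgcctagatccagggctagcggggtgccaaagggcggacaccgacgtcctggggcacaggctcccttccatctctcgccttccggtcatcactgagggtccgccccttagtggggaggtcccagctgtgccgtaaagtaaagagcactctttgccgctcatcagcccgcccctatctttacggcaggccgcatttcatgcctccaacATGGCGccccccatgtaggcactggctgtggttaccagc
Coq7 promoter: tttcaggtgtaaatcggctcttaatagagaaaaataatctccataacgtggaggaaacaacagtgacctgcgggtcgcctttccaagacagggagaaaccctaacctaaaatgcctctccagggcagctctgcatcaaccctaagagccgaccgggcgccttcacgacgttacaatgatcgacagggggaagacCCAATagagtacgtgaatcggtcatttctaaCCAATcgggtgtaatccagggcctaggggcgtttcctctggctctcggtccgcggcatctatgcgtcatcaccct

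The Pdss2 window holds ATGGCG at position 12 after the start, and the Coq7 window holds CCAAT at positions -56 and -25, counted from the start. The RefSeq table had windows for 9 of the 10 listed genes, 11 windows in all, and none for Coq5. ATGGCG was in 3 of these 11 windows (Coq2, Coq9 and Pdss2), where 8.93% of all 32851 windows of that length hold it. CCAAT was in 2 of the 11 (Coq6 and Coq7), against 37.4% of all windows. TGCGCA was in 2 (Coq2 and Coq3), against 7.76%, and CACGTG in 1 (Coq4), against 7.15%. No motif was shared by Pdss2 and Coq7, and a match is a description of letters.

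Coq5 encodes the C-methyltransferase that adds a methyl group to the coenzyme Q ring. It measured 9.02, 9.27 and 8.64 in KO arrays, against 9.81, 10.01 and 9.99 in WT arrays. The genotypes did not overlap, and the highest KO array lay 0.54 below the lowest WT array. The means were 8.98 ± 0.32 in KO arrays and 9.94 ± 0.11 in WT arrays (SD, n = 3 each), a log2 difference of -0.96, or 1.95-fold lower. Of 15298 named genes tested, 6 had a difference at or below that of Coq5, Coq5 and Cavin4 among them.

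Leaving out each array in turn gave Coq5 differences from -1.11 to -0.79, which describe the arrays that chose the gene. Without KO replicate 2, the array with the atrial markers and the highest Coq5 signal of the KO arrays, the difference was -1.11. Among the arrays of 13 weeks, KO replicate 3 measured 8.64 and the 2 WT arrays averaged 9.91.

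**Figure D1:**
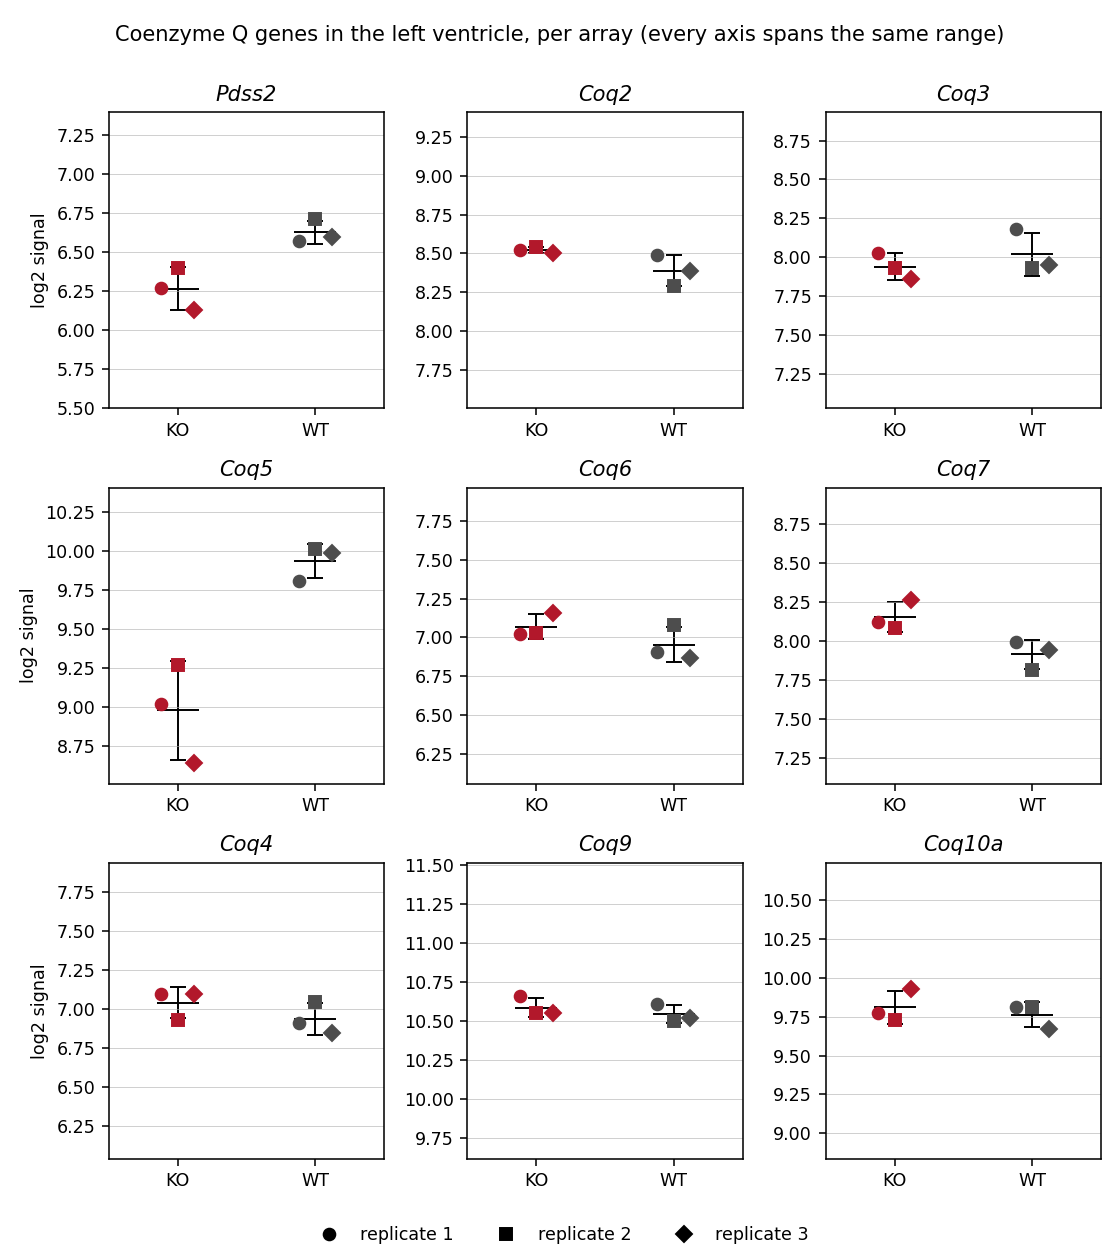
Log2 signal of the 9 measured coenzyme Q genes on each array, KO arrays left and WT arrays right, with the mean and SD of 3 arrays; every vertical axis spans the same range. Coq5 and Pdss2 lie lower in all 3 KO arrays, Coq7 and Coq2 higher, and the other 5 genes overlap between genotypes.

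The rest of the pathway did not follow Coq5 as a group. Of the 8 other measured genes, 2 were lower and 6 higher, with a median log2 difference of 0.08 and a range from -0.36 to 0.24. Over all probe sets tested the median was -0.04 and 59.0% were lower. None of the 8 passed an adjusted p of 0.05 in limma over all probe sets, and 2 had an unadjusted p under 0.05, Pdss2 lower and Coq7 higher, where 13.7% of all probe sets and 11.5% of named genes had one (9.02% of all probe sets lower and 4.71% higher). The genotypes did not overlap at 3 of the 8, with 1 lower and 2 higher, where 19.0% of all probe sets and 18.7% of named genes did not (12.9% of all probe sets lower and 6.12% higher). All 10 probe sets of the members passed the filter on dim signals. Without KO replicate 3 or without WT replicate 2, the 2 at an unadjusted p under 0.05 became 1, because Coq7 no longer reached that level while Pdss2 did. After quantile normalization, median centring and array weights the 2 became 3, with Coq2, higher, at an unadjusted limma p of 0.0195, 0.0356 and 0.0405. With age as a covariate they also became 3, with Coq10a, higher, at 0.0489. Over all probe sets, 3453, 3241, 3400 and 3460 of 24898 reached that level in these settings, in that order, against 3417 as deposited.

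Averaged over these 8 genes, the signal was 8.19, 8.15 and 8.19 in KO arrays, against 8.18, 8.15 and 8.10 in WT arrays. These ranges overlapped. Coq5 lay 0.83, 1.12 and 0.45 above that average in KO arrays, against 1.63, 1.86 and 1.89 above it in WT arrays, so it was lower relative to its own pathway on every KO array. This margin rests on the contrast that chose Coq5 and is given without a test.

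Pdss2, a subunit of the enzyme that builds the isoprenoid tail, measured 6.27, 6.40 and 6.13 in KO arrays, against 6.57, 6.71 and 6.60 in WT arrays. All 3 KO arrays lay below all WT arrays, by 0.17 at the narrowest. The log2 difference was -0.36 (SE 0.09, 95% interval -0.57 to -0.15, limma adjusted p = 0.161), lower in 3 of 3 KO arrays. Leaving out each array in turn gave -0.43 to -0.29, and without KO replicate 2 it was -0.43. Coq2, the transferase that attaches the tail to the ring precursor, measured 8.52, 8.54 and 8.50 in KO arrays, against 8.49, 8.29 and 8.39 in WT arrays. The groups were separated by 0.01, and the log2 difference was 0.13 (SE 0.07, 95% interval -0.03 to 0.29, adjusted p = 0.459).

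Of the enzymes that modify the ring, Coq7 stood on the other side. Coq7, the hydroxylase of a late step, measured 8.12, 8.08 and 8.26 in KO arrays, against 7.99, 7.81 and 7.94 in WT arrays. The groups did not overlap, with 0.09 between them. The log2 difference was 0.24 (SE 0.08, 95% interval 0.06 to 0.42, limma adjusted p = 0.250), higher in 3 of 3 KO arrays. Leaving out each array in turn gave 0.19 to 0.28.

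Coq3, the O-methyltransferase of the ring, measured 8.03, 7.93 and 7.86 in KO arrays, against 8.18, 7.93 and 7.95 in WT arrays. The genotypes overlapped, with a log2 difference of -0.08 (95% interval -0.29 to 0.13, limma adjusted p = 0.757). Coq3 is on chromosome 4, as is Cavin4. Coq6, a hydroxylase of an earlier ring step, measured 7.02, 7.03 and 7.16 in KO arrays, against 6.91, 7.08 and 6.87 in WT arrays. Its values overlapped, with a difference of 0.12 (95% interval -0.08 to 0.31, adjusted p = 0.608).

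Members that hold or chaperone the pathway were close between genotypes. Coq4, which is needed for the assembly of the ring-modifying complex, measured 7.10, 6.93 and 7.10 in KO arrays, against 6.91, 7.05 and 6.85 in WT arrays. Coq9, a lipid-binding partner of COQ7, measured 10.66, 10.55 and 10.55 in KO arrays, against 10.61, 10.50 and 10.52 in WT arrays. Both overlapped, with log2 differences of 0.11 (95% interval -0.09 to 0.31) and 0.04 (95% interval -0.09 to 0.18) and limma adjusted p of 0.652 and 0.804. COQ9 and COQ7 are known to work together, and their transcripts measured differences of 0.04 and 0.24.

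Coq10a encodes a lipid-binding protein that is needed for coenzyme Q to work in respiration. Its brighter probe set measured 9.77, 9.73 and 9.93 in KO arrays, against 9.81, 9.81 and 9.67 in WT arrays. The second measured 5.90, 6.04 and 5.83 in KO arrays, against 6.08, 5.93 and 5.94 in WT arrays. The log2 differences were 0.05 and -0.06, with 95% intervals from -0.13 to 0.22 and from -0.27 to 0.15 and limma adjusted p of 0.835 and 0.826. Neither separated the genotypes, and the sign of the brighter one turned to -0.01 without KO replicate 3.

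**Figure D2:**
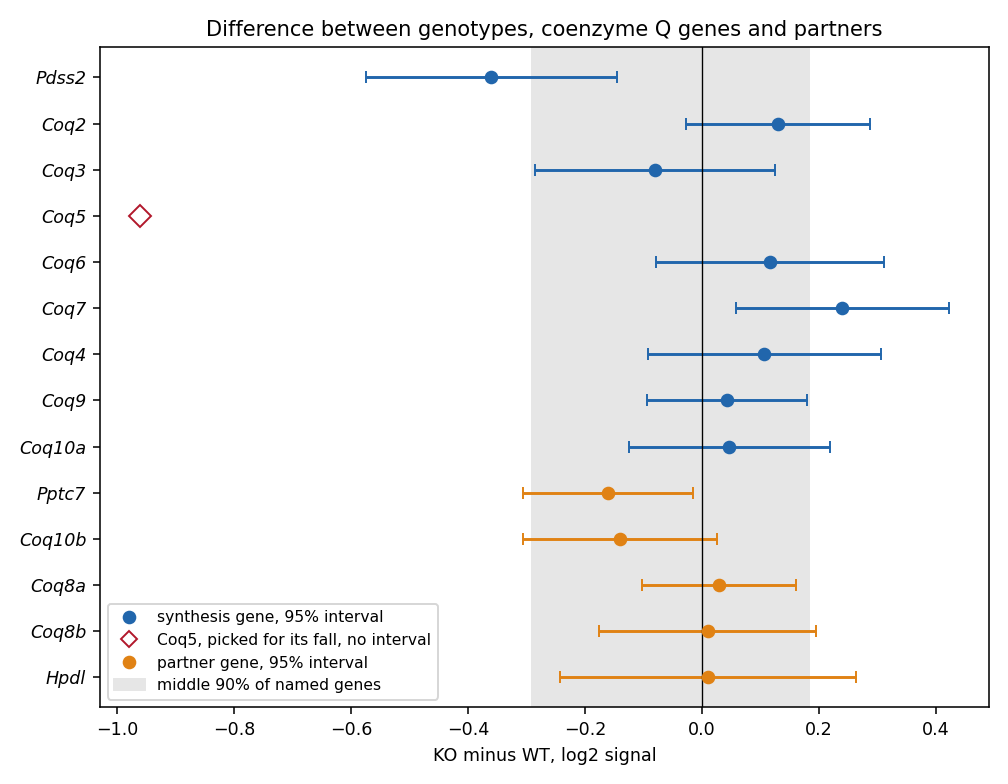
Log2 difference, KO minus WT, of each coenzyme Q gene and of 5 partner genes, with 95% intervals from limma; Coq5 has no interval because it was picked for its difference, and the grey band holds the middle 90% of named genes. Pdss2 at -0.36 and Coq7 at 0.24 lie outside the band with Coq5, and the other members lie inside it.

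The genes whose pattern over the 6 arrays was most like that of Coq5, by Pearson's r among 15297 other named genes, were Atrn, Ccdc141, Acss1, Uqcrc2 and Slc6a8, with r from 0.992 to 0.998. This likeness includes the genotype difference that chose Coq5, and all 5 were lower in KO arrays. Ccdc141 measured -0.94 and Atrn -0.19. Acss1, which makes acetyl-CoA from acetate in mitochondria, measured -0.64, the creatine transporter gene Slc6a8 -0.27, and Uqcrc2, a core subunit of complex III, -0.15. Among the other members, Pdss2 had an r of 0.987 with Coq5, a level that 0.105% of the 15297 genes reached. Coq3 had 0.354, and the remaining members had negative values, down to -0.951 for Coq7. These values also include the genotype difference and are given without a test.

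Partners of the synthesis proteins showed small differences. Pptc7, a mitochondrial phosphatase, measured 8.40, 8.51 and 8.39 in KO arrays, against 8.54, 8.61 and 8.63 in WT arrays, without overlap. Its log2 difference was -0.16 (95% interval -0.31 to -0.01, limma adjusted p = 0.324). Coq10b, the paralogue of Coq10a, measured a difference of -0.14 (95% interval -0.31 to 0.03). The atypical kinase genes Coq8a and Coq8b, whose proteins support the ring-modifying complex, measured 0.03 and 0.01, and Hpdl, which encodes an enzyme of ring precursor synthesis, 0.01, all with overlapping values. Of the 5 measured partners, 1 had an unadjusted p under 0.05, where 13.7% of all probe sets had one. That gene, Pptc7, had one in 9 of 16 alternatives, with a highest unadjusted limma p of 0.132 after quantile normalization. Fdx2 and Fdxr, which bring electrons to ring hydroxylation, had no single-symbol probe set.

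The mevalonate pathway, which supplies the isoprenoid units of the tail, measured lower throughout by small amounts. All 8 measured genes were lower, with a median log2 difference of -0.11, against -0.04 for all probe sets, of which 59.0% were lower. At the brightest probe set of each gene, 0 had an unadjusted p under 0.05 in limma, where 13.7% of all probe sets had one. All 8 were also lower after quantile normalization, with a median of -0.08, and after median centring. Hmgcs1, an early synthase of the pathway, measured 6.90, 6.92 and 6.95 in KO arrays, against 7.06, 7.09 and 7.02 in WT arrays, a difference of -0.13 without overlap. Ggps1, the geranylgeranyl diphosphate synthase gene, measured -0.14, the decarboxylase gene Mvd -0.16, and Fdft1, the first enzyme committed to sterols, -0.12. A second Fdft1 probe set measured -0.32 without overlap.

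Methyl donor supply was measured at 2 of 4 genes. Mat2b, the regulatory subunit of the enzyme that makes S-adenosylmethionine, the donor used by COQ3 and COQ5, measured 7.92, 7.81 and 7.86 in KO arrays, against 7.78, 7.46 and 7.64 in WT arrays. Its values were higher in every KO array than in any WT array, with a log2 difference of 0.24 (limma adjusted p = 0.318). Slc25a26, the carrier that brings this donor into mitochondria, measured a difference of 0.02 with overlap.

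Enzymes that pass electrons to coenzyme Q, complex I left aside, were mixed. Of 14 genes 9 were lower and 5 higher, with a median of -0.035, where 59.0% of all probe sets were lower. An unadjusted p under 0.05 was found at 3 of them (21.4%), where 13.7% of all probe sets had one. After quantile normalization 7 were lower and 7 higher, with a median of 0.01. Sdhd, a membrane anchor of complex II, measured 10.70, 10.60 and 10.58 in KO arrays, against 10.96, 10.86 and 10.85 in WT arrays, a log2 difference of -0.26 (limma adjusted p = 0.121). Etfdh, the dehydrogenase that feeds electrons from fatty acid oxidation to coenzyme Q, measured -0.16, while Etfa, a subunit of its electron donor, measured 0.17. The quinone reductase gene Nqo1 measured -0.13.

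Complex III takes electrons from reduced coenzyme Q, and its subunits lay on both sides of 0. Of 9 genes 5 had an unadjusted p under 0.05, where 13.7% of all probe sets had one, with 3 of them higher and 2 lower. Uqcr11, a small accessory subunit, measured 10.21, 10.04 and 10.37 in KO arrays, against 9.83, 9.68 and 9.73 in WT arrays. That was a log2 difference of 0.46 (SE 0.09, limma adjusted p = 0.101), and a second Uqcr11 probe set measured 0.36. Uqcrq, another small subunit, measured 0.27 and the core subunit gene Uqcrc1 0.12. The core subunit gene Uqcrc2 measured -0.15 and Uqcrfs1, the Rieske iron-sulphur protein, -0.17. Uqcr11 and Uqcrq had an unadjusted p under 0.05 in all 16 alternatives, Uqcrc2 in 9 and Uqcrfs1 in 10. Both lower subunits missed that level without an intensity trend (unadjusted limma p of 0.0808 for Uqcrc2 and 0.0688 for Uqcrfs1). They also missed it without KO replicate 1 (0.0580 and 0.0709), without KO replicate 3 (0.0599 and 0.0781) and without WT replicate 2 (0.0583 and 0.0572). The higher Uqcrc1 missed it in each of these settings and without an intensity trend. Only Uqcr11 and Uqcrq, both higher, kept that level there. Of the 2 lower subunits, Uqcrfs1 alone missed it without WT replicate 1 (0.0689), and Uqcrc2 alone without WT replicate 3 (0.0620). Uqcrc2 also missed it after quantile normalization and after median centring (unadjusted limma p of 0.0867 and 0.0741). Uqcrfs1 also missed it with age as a covariate (unadjusted limma p of 0.0641). As deposited 4 of the 9 were lower, and 2 after quantile normalization. The 9 genes had a median of 0.02, and no subunit passed the adjusted threshold.

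Genes taken as a gauge of mitochondrial content did not share a direction. Of 11 measured, 7 were lower and 4 higher, with a median of -0.03, where 59.0% of all probe sets were lower. An unadjusted p under 0.05 was found at 3 (27.3%), against 13.7% of all probe sets. The import channel gene Timm23 measured -0.32 and citrate synthase, Cs, -0.14, while the cytochrome oxidase gene Cox4i1 measured 0.22 higher. These counts use the brightest probe set of each gene. A second Hspd1 probe set measured 0.20 without overlap, where the brightest measured 0.07 with overlap. The further probe sets of Timm23, Vdac2 and Tomm20 were lower, as their brightest were. Over the 6 lists, 13 of 49 measured genes (26.5%) had an unadjusted p under 0.05 and 0 an adjusted one, the first against 13.7% over every probe set tested. Those 13 became 5 without KO replicate 1, 5 without KO replicate 3, 4 without WT replicate 2 and 6 without WT replicate 3. Over all probe sets, 3417 of 24898 at that level became 2867 without KO replicate 1 and 2310 without KO replicate 3. In these 2 settings, 5 of 49 was near the share over all probe sets. The counts of 4 and 6 without WT replicate 2 or 3 are given without that share, and nothing is read from them.

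**Figure D3:**
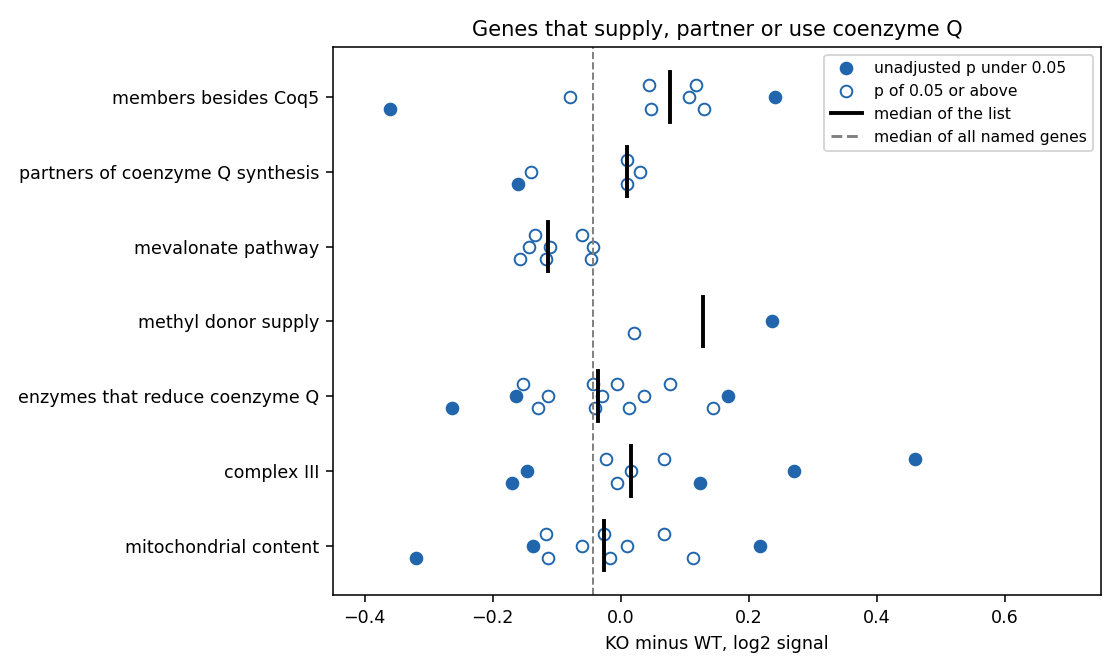
Log2 difference, KO minus WT, of each measured gene in the coenzyme Q set without Coq5 and in the 6 lists around it; filled points have an unadjusted p under 0.05 in limma, black bars mark list medians and the dashed line the median of all named genes. The 8 mevalonate genes all lie below 0, and complex III spreads from -0.17 to 0.46.

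Coq5 lies on chromosome 5 close to Gatc, which was also known to be low in these arrays. The genes around it were therefore compared, taking the 5 measured genes on each side in RefSeq order. Gatc, which encodes part of a mitochondrial amidotransferase that acts on charged tRNA, measured 8.13, 8.31 and 7.94 in KO arrays, against 8.79, 8.79 and 8.70 in WT arrays, a log2 difference of -0.63. Since Gatc was known to be low, this is a description with no test.

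Rnf10, a ubiquitin ligase gene and the nearest measured neighbour on one side, measured 10.11, 10.11 and 9.88 in KO arrays, against 10.36, 10.34 and 10.41 in WT arrays. Its log2 difference was -0.34 (SE 0.07, limma adjusted p = 0.120), without overlap. Cox6a1, a cytochrome oxidase subunit gene, measured 9.23, 9.34 and 9.19 in KO arrays, against 9.68, 9.46 and 9.43 in WT arrays, a difference of -0.27 (SE 0.08, adjusted p = 0.227). Both were lower in every KO array.

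The low signals were not continuous along the chromosome. Dynll1, the dynein light chain gene next to Coq5 on the other side, measured -0.14 with overlap (95% interval -0.34 to 0.06), and Triap1, between Gatc and Cox6a1, -0.04 with overlap. The splicing factor gene Srsf9, between Dynll1 and Gatc, measured 6.82, 6.75 and 6.65 in KO arrays, against 6.62, 6.54 and 6.55 in WT arrays, a difference of 0.17 in the other direction (95% interval -0.01 to 0.35). Over 16 alternatives the Srsf9 difference ranged from 0.122 to 0.215. Its unadjusted limma p was under 0.05 in 4 of them, with a lowest of 0.0149 after quantile normalization. Farther out, Pop5, Cabp1, Mlec and Unc119b measured 0.02, -0.05, -0.02 and 0.06, all with overlap. Of the 9 neighbours besides Gatc, 6 were lower and 3 higher, with a median of -0.04, and 5 were lower after quantile normalization. An unadjusted p under 0.05 was found at 2, Rnf10 and Cox6a1, both lower, where 9.02% of all probe sets were lower at that level. In the fit of single-symbol probe sets only, 1841 of 16798 were lower at that level.

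**Figure D4:**
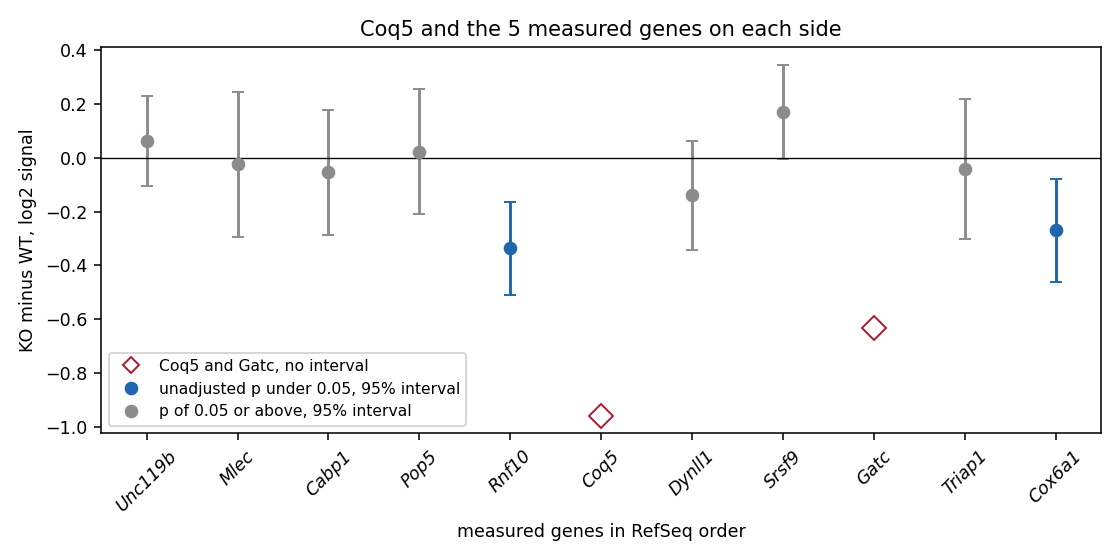
Log2 difference, KO minus WT, of Coq5 and of the 5 measured genes on each side in RefSeq order, evenly spaced and not to genomic scale, with 95% intervals from limma except for Coq5 and Gatc. Rnf10 and Cox6a1 lie below 0 with their intervals, Gatc is at -0.63, and Srsf9, between Coq5 and Gatc, lies above 0.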

How the data were processed

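The log2 values of 35556 probe sets on 6 arrays were used as the authors deposited them. Per the submitters' processing notes MAS5 was used, with no role or version. The sources used here give neither summarization nor scaling, and the log2 scale was read from the range of the values (0.46 to 13.72). The platform annotation, updated by gene identifier through RefSeq (GRCm38.p6), gave a single symbol to 21789 probe sets. Each gene was represented by its brightest such probe set on average. Genotypes were compared with limma 3.58.1 in R 4.3.3 (lmFit, eBayes with an intensity trend; KO minus WT, two-sided) over probe sets at or above the 30th percentile of mean signal (log2 3.45), with Benjamini-Hochberg adjustment over all 24898. With 3 arrays per genotype, precision is limited by their number. For KO minus WT on simulated arrays (24889 probe sets tested) with changes of 0.5, 1, 2 and 3 the test recovered 33.3%, 72.3%, 100% and 100%. The simulation planted 50 changes of each size and made 149 calls, 8 of them false, where the data gave 1 call. Recovery at the same size may therefore be lower in the data. The members and lists were chosen with earlier results of these data known. All members and partners were named, and up to 4 genes of each other list by smallest p. Alternatives covered normalization, filter, probe sets, age, replicate block, weights, trend and each array left out. Same-numbered KO and WT arrays correlated at -0.06, 0.02 and -0.06 in their deviations from the genotype means. Such correlations cannot exclude that numbers pair the samples, and the main fit used no pairing.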

Additional observations from a re-analysis of the deposited data

How the results depend on the processing

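Precision is limited by the number of arrays, and dim probe sets may understate a difference. No member besides Coq5 passed the adjusted threshold in limma under any of 16 alternatives, where the smallest adjusted p of Pdss2 and Coq7 were 0.0856 and 0.162, both with single-symbol probe sets only. Coq5 ranged from -1.18 to -0.79, Pdss2 from -0.43 to -0.29 and Coq7 from 0.19 to 0.30. The members' median of 0.08 was 0.12 after quantile normalization and 0.13 with age as a covariate, and from 0.05 to 0.10 with an array left out. Members at an unadjusted p under 0.05 numbered from 1 to 3 with an array left out, a range given without the share over all probe sets. They numbered 3 after quantile normalization, after median centring, with age as a covariate and with array weights. Probe sets past the adjusted threshold numbered 130 after quantile normalization, 105 after median centring, 48 with the stricter filter, 163 with single-symbol probe sets only, 34 with age as a covariate, 126 with array weights and 0 with the replicate block, and from 0 to 12 with an array left out. At an unadjusted p under 0.05, 618 were higher with single-symbol probe sets only, and lower ones numbered from 1496 to 2345 with an array left out. Lower calls were 2245 against 1172 higher as deposited, 1768 against 1685 after quantile normalization and 1816 against 1425 after median centring. Of the list genes, 4 had an unadjusted p under 0.05 without an intensity trend, where 3086 of 24898 probe sets had one. From 4 to 13 of the list genes had one with an array left out, a range given without the share over all probe sets. Only Uqcr11 passed the adjusted threshold among them, with single-symbol probe sets only (adjusted p = 0.033). Signs turned for Mlec at 0.026 after quantile normalization, 0.0075 with array weights and 0.167 with the mean of its probe sets, for Triap1 at 0.0032 with array weights, for Slc25a26 at -0.024 with age as a covariate and for Coq10a at -0.0067 with the mean of its probe sets. With an array left out, Coq10a ranged from -0.013 to 0.087, Coq8a from -0.0033 to 0.062, Coq8b from -0.017 to 0.033, Hpdl from -0.048 to 0.068, Slc25a26 from -0.037 to 0.048, Mlec from -0.085 to 0.075, Pop5 from -0.027 to 0.093 and Triap1 from -0.137 to 0.053. Cavin4 lost its adjusted call with the replicate block (adjusted p = 0.0754) and without KO replicate 1, KO replicate 3 or WT replicate 1 (0.0658, 0.119 and 0.0782). The causes of these shifts were not tested.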
